A study of Mus musculus with 208 samples.

Results

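The response of striatal neuronal nuclei to an immune challenge was measured in mice that had been exposed to morphine around birth. The comparison set 18 libraries of the group MOR-LPS against 8 libraries of the group MOR-SAL, 26 of the 54 striatal libraries and of the 208 libraries of the series, and libraries under 0.5 of the striatal median read total would have been dropped, although none was. All mice were wild-type C57BL/6NTac of both sexes, and each library was made from NeuN+ nuclei sorted from the punched striatum of 1 adult mouse. The dams of MOR mice received morphine sulfate at 10 mg/kg per day from an implanted minipump, their pups were given to untreated foster mothers at birth and were injected with morphine at 10 mg/kg under the skin, 2 injections a day, from postnatal day 1 to 14, and withdrawal was spontaneous. As adults, MOR-LPS mice received lipopolysaccharide (LPS) and MOR-SAL mice received saline, and tissue was taken 2 hours later. The mice called SAL-SAL (13 libraries) and SAL-LPS (15 libraries) received saline in place of morphine around birth and the same adult challenges. MOR-SAL held 4 females and 4 males from 6 litters, and MOR-LPS held 8 females and 10 males from 9 litters, if the first part of the animal number is the litter. As sorted nuclei of 1 dissection, the libraries report nuclear RNA of a mixture of cells from the punched tissue, in which fewer cells of a type and less RNA per cell cannot be told apart.

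LPS is a component of the outer membrane of Gram-negative bacteria. It is sensed by TLR4 with CD14 on macrophages, microglia and endothelium, which signal through NF-kB and interferon regulatory factors and release TNF, interleukins and type I interferons. In the brain, a peripheral dose of LPS is known to raise acute-phase genes such as Lcn2, Serpina3n and complement genes, largely in glia and vessels, and to raise circulating glucocorticoids, whose receptor induces genes such as Fkbp5. The striatum is made mostly of GABAergic medium spiny neurons, which carry dopamine receptors and opioid receptors.

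Read totals ran from 5954700 to 16183369 in MOR-SAL and from 6879077 to 92945090 in MOR-LPS, so that a count of 0 in a single library allows up to 0.504 CPM in the shallowest and 0.0323 CPM in the deepest of these libraries, by counting error only. Levels below are normalized CPM (reads scaled to a common library size by TMM), and gene lengths were not taken into account, so levels are compared only within a gene. Neuron markers (Rbfox3, Snap25, Syt1, Map2, Meg3 and Stmn2) were present in every library, with a summed level of 9063 to 24710 CPM in MOR-SAL and 4611 to 13310 CPM in MOR-LPS, and medium spiny neuron genes summed to 6813 to 20070 and 1852 to 17840 CPM. The libraries also held glial RNA, in unequal amounts, although the NeuN sort should remove glial nuclei. The summed level of 10 oligodendrocyte markers had a lowest value of 217, a median of 343 and a highest of 1308 CPM in MOR-SAL, and 175, 560 and 4802 CPM in MOR-LPS. Of the 18 MOR-LPS libraries, 6 exceeded 2000 CPM (7-1, 14-4, 15-3, 16-0, 16-2 and 16-4, where the first number is taken as the litter and the second as the animal), whereas no MOR-SAL library did, and of these 6 all were above the highest MOR-SAL library in the summed microglia markers and 5 in the summed astrocyte markers. One MOR-SAL library, 15-0, stood apart in another way. Repeat-like transcripts, a list of genes that collect reads from repeats and ribosomal RNA, summed to 296400 CPM there, against at most 125100 CPM in the other MOR-SAL libraries.

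**Figure D1:**
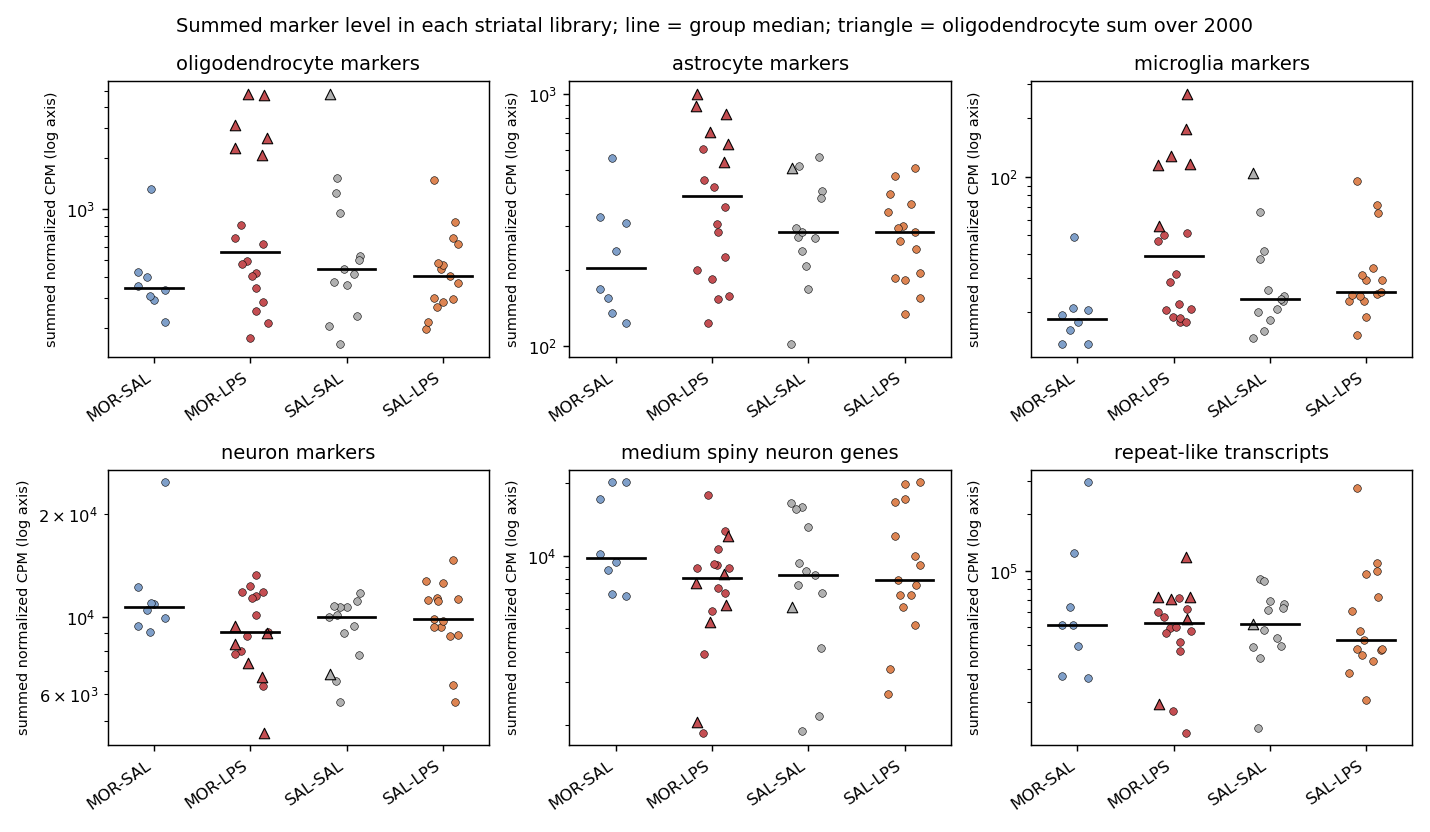
Summed normalized CPM (log axis) of marker lists in each of the 54 striatal libraries, by group. Each point is a library, the line is the group median, and triangles are the 7 libraries with an oligodendrocyte sum over 2000 CPM, of which 6 are MOR-LPS and 1 is SAL-SAL; the 6 MOR-LPS triangles are all above the MOR-SAL points in the microglia panel, and 5 of them are in the astrocyte panel.

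After perinatal morphine, the genes with the smallest p among those higher under LPS were the complement gene C4b and the protease inhibitor gene Serpina3n, with log2 fold changes of 5.10 and 4.73. They were higher in each of the 18 MOR-LPS libraries than in any of the 8 MOR-SAL libraries. Of 23426 genes tested, 325 passed an adjusted p under 0.05 (1.39% of the genes tested), 198 higher (0.845%) and 127 lower (0.542%) in MOR-LPS, by edgeR's quasi-likelihood test with Benjamini-Hochberg adjustment over all genes. The median log2 fold change was 2.49 among the higher and -1.73 among the lower genes, against 0.11 over all genes tested and 0.04 over the 14223 genes with a mean of at least 1 CPM. Of the 325 genes, 103 had a mean under 1 CPM, 37 had no read in any MOR-SAL library, 31 had no read in any MOR-LPS library, and 5 had groups that did not overlap, namely C4b, Serpina3n, Mrgpra9, Dapp1 and Nmi. These counts cover called genes only, which were chosen for a difference between the same libraries. The number without overlap among all genes tested was not counted. Among genes that fell, the mitochondrial iron importer Slc25a37 had the smallest p, with a log2 fold change of -1.02.

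The number of genes called depended strongly on which libraries entered. Without the 7 libraries over 2000 CPM in oligodendrocyte markers, 9 genes were higher and 2 were lower. With litter as a replicate block in the morphine libraries, 6 were higher and 4 lower, and with only the 2 groups in the fit 17 and 5. The count of higher genes moved by over 1.5 times without any of 11 single libraries: it became 45 without MOR-SAL 12-1, 57 without 15-0, 73 without 14-1, 99 without 17-4, 115 without 15-2, 117 without 8-0 and 123 without 18-0, and 71 without MOR-LPS 14-4, 92 without 15-3, 107 without 16-2 and 108 without 7-1. The count of lower genes moved as much without MOR-SAL 12-1 (47), 14-1 (65), 15-0 (31) or 17-4 (80) and without MOR-LPS 7-1 (80), 14-4 (73), 15-3 (76) or 16-2 (66). C4b, Serpina3n, Msr1 and Slc25a37 stayed called both without the glia-rich libraries and with litter as a block. The block compares challenges within 5 litters, with 7 MOR-SAL and 10 MOR-LPS libraries. The glia-rich libraries 7-1, 16-0, 16-2 and 16-4 lie outside these litters, so these fits are not separate checks. Scaling by library size alone gave 338 higher and 69 lower genes, with a median of 0.29 over all genes, so the balance of higher and lower calls rests on the scaling.

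**Figure D2:**
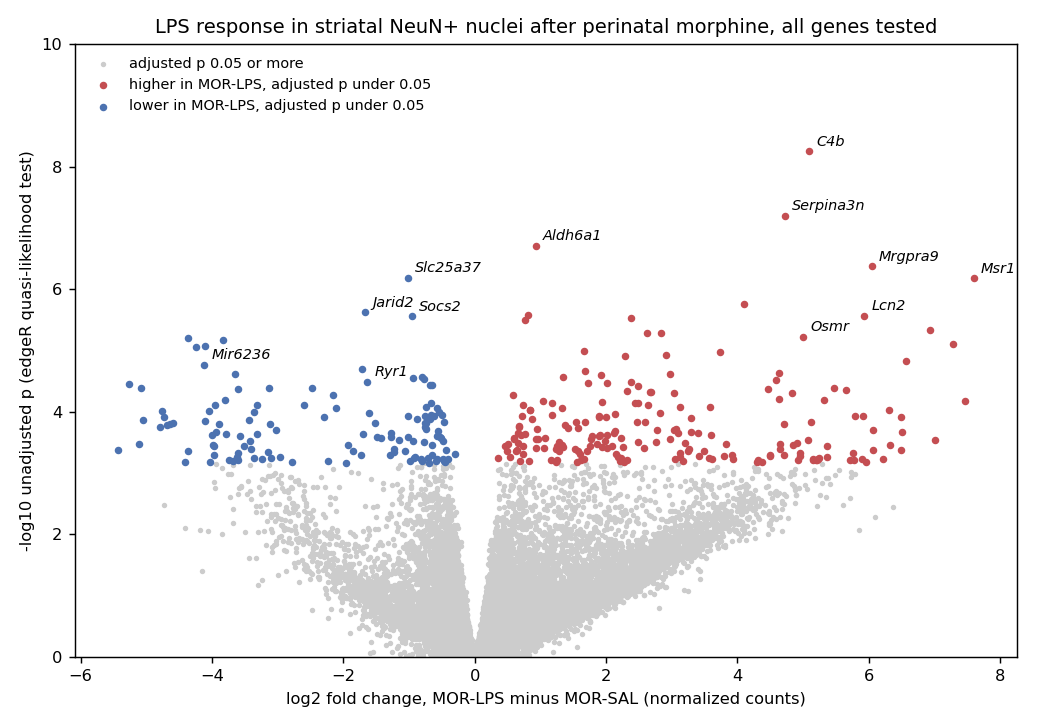
Log2 fold change in MOR-LPS against MOR-SAL (x axis) and -log10 of the unadjusted edgeR p (y axis) for 23426 striatal genes. The 198 genes called higher are red, with C4b and Serpina3n at the top, and the 127 called lower are blue.

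The promoters of Serpina3n, Lcn2, Osmr and Icam1 are shown because these genes were all called higher and are known targets of inflammatory transcription factors. Each sequence runs 5′ to 3′ on the gene's strand from 250 bases before to 50 bases after the start site, as RefSeq gives it for GRCm38.p6, and capitals mark matches on either strand to a STAT motif (TTCNNNGAA), a C/EBP motif (TTGCNNAA), a loose NF-kB motif (GGGNNNNNCC) or a short glucocorticoid receptor motif (TGTTCT), which may overlap. Serpina3n is at chr12:104406458-104406757 on the plus strand, Lcn2 at chr2:32387690-32387989 on the minus strand, Osmr at chr15:6874264-6874563 on the minus strand and Icam1 at chr9:21015690-21015989 on the plus strand.
Serpina3n: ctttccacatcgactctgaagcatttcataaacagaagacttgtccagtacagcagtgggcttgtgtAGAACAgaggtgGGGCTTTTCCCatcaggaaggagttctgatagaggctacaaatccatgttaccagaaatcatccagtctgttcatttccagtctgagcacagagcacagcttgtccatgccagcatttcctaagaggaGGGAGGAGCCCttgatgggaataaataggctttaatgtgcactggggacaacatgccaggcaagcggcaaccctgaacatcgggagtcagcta
Lcn2: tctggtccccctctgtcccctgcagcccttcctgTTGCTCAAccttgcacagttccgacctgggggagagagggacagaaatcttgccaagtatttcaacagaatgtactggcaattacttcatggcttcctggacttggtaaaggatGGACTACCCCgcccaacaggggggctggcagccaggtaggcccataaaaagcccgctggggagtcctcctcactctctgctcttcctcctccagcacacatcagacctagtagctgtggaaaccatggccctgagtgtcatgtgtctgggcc
Osmr: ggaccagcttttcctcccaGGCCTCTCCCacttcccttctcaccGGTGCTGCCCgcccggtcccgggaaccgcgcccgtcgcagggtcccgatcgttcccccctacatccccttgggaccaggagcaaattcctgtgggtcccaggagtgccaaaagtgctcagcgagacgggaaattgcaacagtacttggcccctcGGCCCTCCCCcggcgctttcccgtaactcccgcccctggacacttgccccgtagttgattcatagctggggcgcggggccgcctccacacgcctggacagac
Icam1: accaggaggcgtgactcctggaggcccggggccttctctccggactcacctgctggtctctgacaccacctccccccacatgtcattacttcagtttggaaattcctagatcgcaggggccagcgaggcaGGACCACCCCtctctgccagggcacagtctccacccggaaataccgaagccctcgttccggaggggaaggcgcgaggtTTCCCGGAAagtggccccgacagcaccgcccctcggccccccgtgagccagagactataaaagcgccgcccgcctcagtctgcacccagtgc
Serpina3n held 4 matches to the NF-kB motif and 1 glucocorticoid receptor match, Lcn2 held 1 C/EBP and 1 NF-kB match, Osmr held 3 NF-kB matches, and Icam1 held 1 STAT and 1 NF-kB match. The NF-kB matches of Serpina3n at -171 and -43 on its own strand overlap those at -170 and -42 on the other strand, so they are not 4 separate sites. Among the 182 RefSeq promoters of 149 genes called higher, 7.69% held the STAT motif, 12.6% the C/EBP motif, 56.6% the NF-kB motif and 14.8% the glucocorticoid receptor motif. These shares were 7.37%, 9.6%, 61.5% and 14.6% among the 17945 promoters of all genes tested, and 8.3%, 10.8%, 50.8% and 19.0% among all 32851 promoters. The shares among promoters of higher genes were thus within a few percentage points of those among promoters of all genes tested. Of the 24 leading genes described next, 18 had a RefSeq promoter in the table used here.

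Complement and acute-phase genes come first. C4b, which encodes a chain of complement component C4 (chr17:34728380-34743882, mm10, and has a near-identical neighbour, C4a, with which reads could be shared), had a lowest, median and highest level of 0, 0.86 and 2.09 CPM in MOR-SAL and 2.55, 11.0 and 155.5 CPM in MOR-LPS. Its log2 fold change was 5.10 (SE 0.74, adjusted p = 0.000132, edgeR), and all 18 MOR-LPS libraries were above the MOR-SAL libraries. The 6 glia-rich MOR-LPS libraries held 55.5 to 155.5 CPM of C4b, and the other 12 held 2.55 to 58.7 CPM with a median of 7.53 CPM, still above every MOR-SAL library. Without the glia-rich libraries the log2 fold change was 3.86 (adjusted p = 0.00125, edgeR).

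Serpina3n, a secreted inhibitor of serine proteases and a marker of reactive astrocytes (chr12:104406729-104414329), stood at 0, 0.719 and 2.48 CPM in MOR-SAL and at 2.55, 12.5 and 101.8 CPM in MOR-LPS. The groups did not overlap, and the log2 fold change was 4.73 (SE 0.76, adjusted p = 0.000744, edgeR). Both genes kept an adjusted p under 0.05 in 55 of 56 alternative fits, the exception being the males alone, where no gene was called. Without the glia-rich libraries Serpina3n changed by 3.52 (adjusted p = 0.0263, edgeR).

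Lcn2, lipocalin 2, an iron-sequestering acute-phase protein (chr2:32384633-32388252), had 2 reads in all of MOR-SAL, both in library 17-4, and 400 reads in MOR-LPS. It was at 0 in 2 MOR-LPS libraries and had a median of 1.15 and a highest level of 7.97 CPM, and 15 MOR-LPS libraries were above the highest MOR-SAL library. The pooled rate was 53.3 times that of MOR-SAL (95% counting interval 14.7 to 441.9, exact binomial), with a fitted log2 fold change of 5.93 (adjusted p = 0.00576, edgeR). Without the glia-rich libraries the log2 fold change was 5.05 and the adjusted p 0.0764, and with litter as a block they were 5.44 and 0.149 (edgeR).

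Receptor genes were also among the leading genes. Msr1, a macrophage scavenger receptor, had no read in MOR-SAL and 367 reads in 15 of the 18 MOR-LPS libraries, at least 32.6-fold higher against a floor of 3 reads over the MOR-SAL group (adjusted p = 0.00262, edgeR). Mrgpra9, an orphan receptor of the Mas-related family whose members are close copies of each other, had 2 reads in 1 MOR-SAL library and was present in all 18 MOR-LPS libraries at 0.272 to 12.3 CPM, without overlap between the groups. Its pooled rate was 82 times that of MOR-SAL (95% counting interval 22.6 to 678.6). With litter as a block Mrgpra9 changed by 5.71 on the log2 scale and was not called (adjusted p = 0.0536, edgeR). Osmr, the receptor of oncostatin M, a cytokine that signals through STAT3, stood at 0, 0.0427 and 0.356 CPM in MOR-SAL and at 0.2, 1.89 and 23.1 CPM in MOR-LPS (log2 fold change 5.00, SE 1.00, adjusted p = 0.00808, edgeR). Osmr was above the MOR-SAL range in 16 of 18 MOR-LPS libraries, and without the glia-rich libraries its log2 fold change was 3.75 with an adjusted p of 0.117. With litter as a block it was 4.41, also not called (adjusted p = 0.105, edgeR).

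Irgm1, an interferon-inducible GTPase of macrophage defence, had 0, 0.769 and 1.05 CPM in MOR-SAL and 0.728, 2.9 and 12.5 CPM in MOR-LPS, with 17 of 18 libraries above the MOR-SAL range (log2 fold change 2.63, SE 0.52, adjusted p = 0.00763, edgeR). Plekho2, a pleckstrin homology domain protein, rose by 2.38 and Itih5, which binds hyaluronan of the extracellular matrix, by 2.84 on the log2 scale. These 3 genes were called with all libraries and not without the glia-rich ones, where they changed by 1.80, 1.52 and 1.66 with adjusted p between 0.124 and 0.131. With litter as a block they changed by 2.29, 1.89 and 2.33 and were not called (adjusted p 0.274, 0.24 and 0.203, edgeR).

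A further 3 leading genes changed by less than 2-fold and were present at moderate levels in every library. Aldh6a1, a mitochondrial enzyme of valine and thymine breakdown, stood at 8.33, 16.4 and 22.8 CPM in MOR-SAL and at 18.8, 30.3 and 52.5 CPM in MOR-LPS, and 16 of 18 MOR-LPS libraries were above the MOR-SAL range (log2 fold change 0.93, SE 0.16, adjusted p = 0.00154, edgeR). Its exons overlap those of Bbof1 on the other strand. Amot and Nf2 encode angiomotin and merlin, which act together in the Hippo growth control pathway. Amot had 4.7, 6.6 and 8.49 CPM in MOR-SAL and 8.07, 10.5 and 16.6 CPM in MOR-LPS (log2 fold change 0.82, SE 0.16). Nf2 had 48.7, 66.1 and 79.0 CPM in MOR-SAL and 67.2, 104.8 and 194.6 CPM in MOR-LPS (log2 fold change 0.78, SE 0.15). All 3 stayed called without the glia-rich libraries, with adjusted p between 0.0327 and 0.0418, and none was called with litter as a replicate block, where the log2 fold changes were 1.09, 0.71 and 0.89 (adjusted p 0.105, 0.366 and 0.149).

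**Figure D3:**
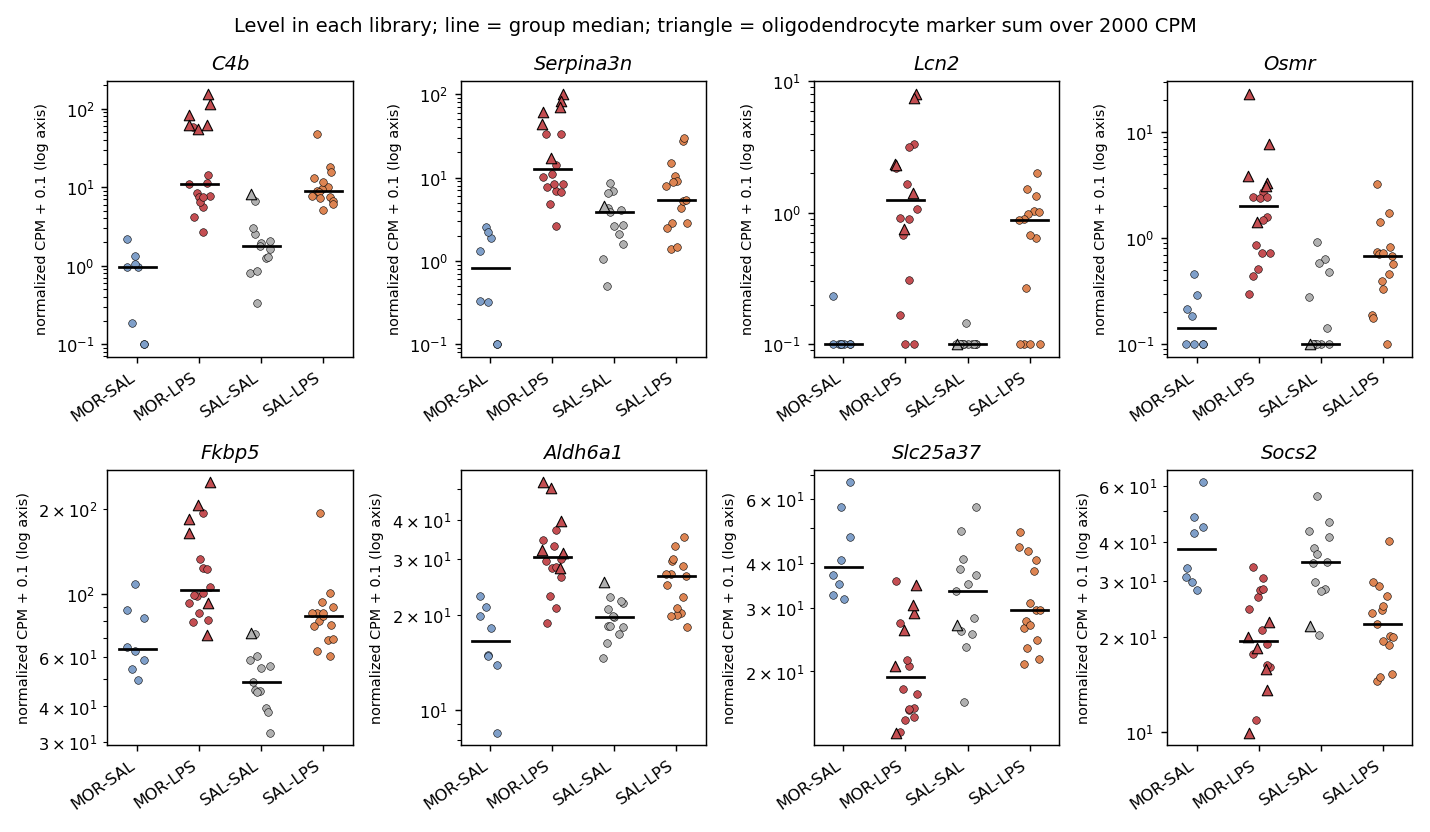
Level of 8 genes in each of the 54 striatal libraries (normalized CPM + 0.1, log axis), by group; the line is the group median and triangles are the libraries with an oligodendrocyte marker sum over 2000 CPM. C4b and Serpina3n separate MOR-LPS from MOR-SAL fully, whereas Fkbp5, Aldh6a1, Slc25a37 and Socs2 shift with overlap.

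Slc25a37 and Socs2 had the smallest p among the 12 leading lower genes apart from Jarid2, which is described below. Slc25a37, mitoferrin 1, which imports iron into mitochondria, stood at 31.6, 38.7 and 66.7 CPM in MOR-SAL and at 13.4, 19.2 and 35.6 CPM in MOR-LPS, with 16 of 18 MOR-LPS libraries below the MOR-SAL range. It fell by 1.02 on the log2 scale (SE 0.18, adjusted p = 0.00262, edgeR), by 1.17 without the glia-rich libraries and by 1.25 with litter as a block. The predicted genes Gm27223 and Gm31748 overlap its exons on the other strand. Socs2, a suppressor of growth hormone signalling, stood at 28.1, 37.9 and 61.8 CPM in MOR-SAL and at 9.82, 19.4 and 33.2 CPM in MOR-LPS (log2 fold change -0.95, SE 0.18, adjusted p = 0.00576, edgeR), and without the glia-rich libraries it changed by -0.80 with an adjusted p of 0.11. With litter as a block Socs2 changed by -1.08 and was not called (adjusted p = 0.149, edgeR).

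Among genes of neuronal excitability and structure, Ryr1, a calcium release channel of the endoplasmic reticulum, had 42.7, 124.3 and 274.6 CPM in MOR-SAL and 7.07, 42.6 and 73.6 CPM in MOR-LPS. It fell by 1.64 on the log2 scale (adjusted p = 0.0185, edgeR) and by 2.08 with litter as a block. Unc13a, which primes synaptic vesicles, fell by 0.77, Reep1, which shapes the endoplasmic reticulum, by 0.68, Slc4a3, an anion exchanger, by 0.67, and Crocc, a rootlet protein of the cilium, by 0.93. Reep1 was below the MOR-SAL range in 16 of 18 libraries, and Crocc in 6. Mcmdc2, a meiosis gene whose exons overlap Snhg6 on the other strand, and Lactb, a mitochondrial protease, fell by 0.80 and 0.65. These 7 genes were not called without the glia-rich libraries (adjusted p between 0.136 and 0.195), although their log2 fold changes stayed near those with all libraries, at -1.43 for Ryr1, -0.80 for Crocc, -0.67 for Unc13a, -0.65 for Mcmdc2, -0.55 for Lactb and Reep1 and -0.53 for Slc4a3. With litter as a replicate block, Ryr1 stayed called (adjusted p = 0.0278, edgeR) and the other 6 did not (adjusted p between 0.149 and 0.422), at log2 fold changes between -0.95 and -0.54.

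The fall of 3 leading genes rested on library 15-0 of MOR-SAL, the one rich in repeat-like transcripts. Jarid2 had 5644 CPM in this library against 232.8 to 331.7 CPM in the other 7 MOR-SAL libraries, and 200.9 to 341.0 CPM in MOR-LPS. Tmtc2 had 4236 CPM there against at most 157.9 CPM in the others, and Mir6236 had 1185 CPM against at most 13.3 CPM. Without this library the log2 fold changes were -0.05 for Jarid2, 0.14 for Tmtc2 and -0.31 for Mir6236, with adjusted p of at least 0.818. Slc4a3 went from -0.67 to -0.43 and was no longer called (adjusted p = 0.141, edgeR), and Mcmdc2 (-0.71, adjusted p = 0.0544) and Reep1 (-0.61, adjusted p = 0.0561) also missed the threshold.

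**Figure D4:**
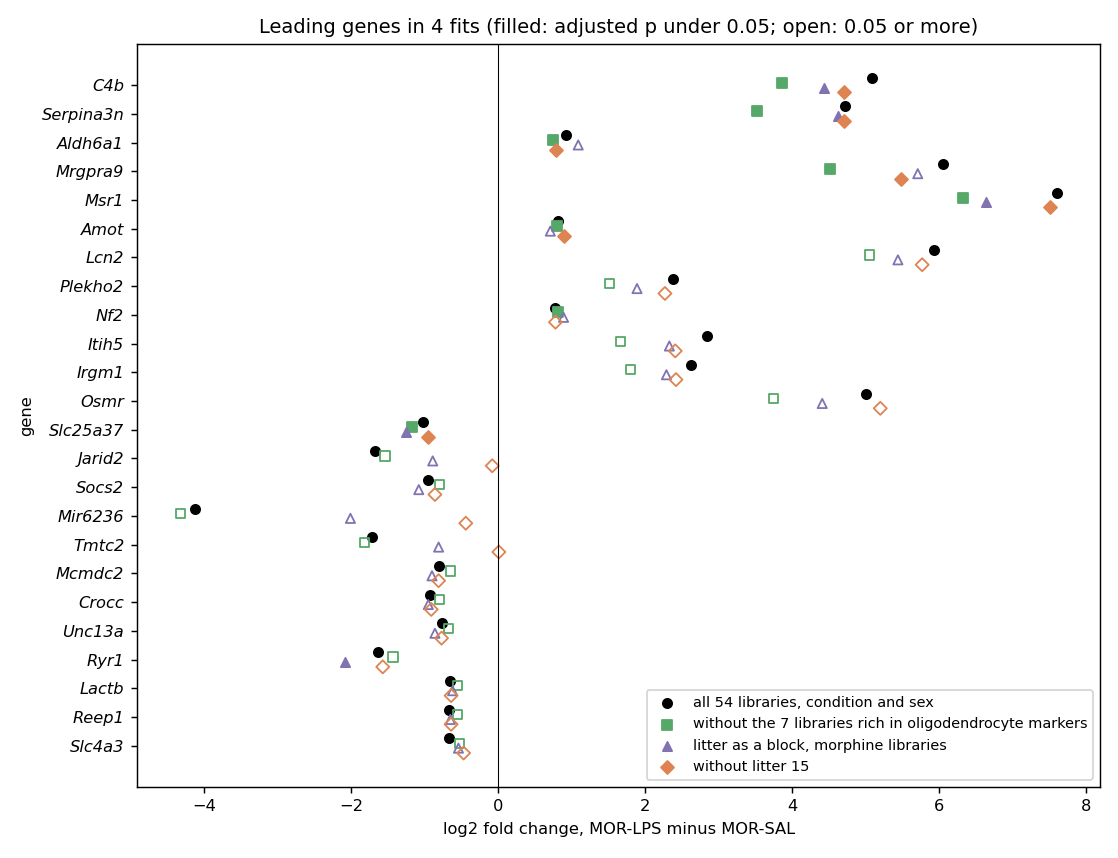
Log2 fold change in MOR-LPS against MOR-SAL of the 24 leading genes in 4 fits: all 54 libraries, without the 7 libraries rich in oligodendrocyte markers, with litter as a block, and without litter 15. Filled symbols have an adjusted p under 0.05. C4b, Serpina3n, Msr1 and Slc25a37 are filled in all 4, and Jarid2, Tmtc2 and Mir6236 move toward 0 without litter 15.

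NF-kB is the factor through which LPS and TNF act on many inflammatory genes. Of 23 NF-kB and acute inflammatory genes tested, 5 were higher and none lower, against 198 higher and 127 lower of all 23426 genes. The median log2 fold change was 1.23 against 0.11 over all genes, and the others of the 26 on the list had too few reads. Besides Lcn2, the 5 were Cebpd, a C/EBP factor of the acute-phase response, Icam1, a leukocyte adhesion molecule, Socs3, an inhibitor of cytokine signalling, and the cytokine Tnf. Cebpd had no read in MOR-SAL and 225 in MOR-LPS, at least 20.0-fold higher, and Tnf had none and 112, at least 9.96-fold higher. Icam1 had 5 reads in MOR-SAL and 378 in MOR-LPS, where 17 of 18 libraries were above the MOR-SAL range (log2 fold change 4.64, SE 1.07, adjusted p = 0.0235, edgeR). Socs3 rose by 3.93 (adjusted p = 0.0481, edgeR). Il1b, with no read in MOR-SAL, had an adjusted p of 0.0834. Over 0.5 of the list was under a mean of 1 CPM, a range in which simulated data gave excess false calls. Of the 11 members with a mean of at least 1 CPM, 1 was called in a fit of such genes alone, and their median log2 fold change was 0.26, against 182 higher and 88 lower of 14195 genes and a median of 0.05 in that fit.

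Of 25 interferon and antigen presentation genes tested, 4 were higher and none lower, with a median log2 fold change of 2.03, and 24 of the 25 had a positive fold change. Over all 23426 genes tested, 198 were higher, 127 were lower and 14012 had a positive fold change, with a median of 0.11. A gene with no read in MOR-SAL passed the read filter through the other groups and could not fall, so its sign carries little weight. Bst2 (tetherin, which holds budding viruses) had no read in MOR-SAL and was at least 12.1-fold higher, and the guanylate-binding protein Gbp3 was at least 9.60-fold higher. Nlrc5, the transactivator of MHC class I genes, rose by 3.07 and Ifih1, a sensor of viral RNA, by 3.13. Of 17 cytokine and pattern receptors and adaptors tested, 3 were higher: Osmr, Tlr2, which was without reads in MOR-SAL and at least 21.2-fold higher, and the TNF receptor Tnfrsf1a, which rose by 4.49. The list's median was 0.47, and Stat3 (log2 fold change 0.55, adjusted p = 0.185) and Il6st, the shared signal chain of the interleukin 6 family (0.31, adjusted p = 0.210), did not pass. In the fit of genes with a mean of at least 1 CPM, 1 of 9 interferon and antigen presentation genes (median 1.23) and 1 of 13 receptors and adaptors (median 0.38) were called, against the same 182 higher and 88 lower of 14195 genes.

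Glucocorticoids enter the brain and act on the glucocorticoid receptor, a transcription factor. Of 18 of its known targets tested, 4 were higher and none lower, 17 had a positive fold change and the median log2 fold change was 1.1. Over all 23426 genes tested, 198 were higher, 127 were lower and 14012 had a positive fold change, with a median of 0.11. Fkbp5, a co-chaperone that limits the glucocorticoid receptor, had 49.6, 63.5 and 108.2 CPM in MOR-SAL and 71.7, 103.1 and 247.7 CPM in MOR-LPS (log2 fold change 0.84, SE 0.20, adjusted p = 0.0259, edgeR), with 8 of 18 libraries above the MOR-SAL range. Hif3a, an inhibitory hypoxia factor, had a median of 5.66 CPM in MOR-SAL and 14.4 CPM in MOR-LPS and rose by 2.38. Cdkn1a, a cell cycle inhibitor, rose by 2.67 and Ddit4, an inhibitor of mTOR signalling, by 1.89. In the fit of genes with a mean of at least 1 CPM, 5 of the 18 were called higher, with a median of 1.11. All genes of that fit gave 182 higher and 88 lower of 14195, with a median of 0.05.

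These 4 lists had no called member without the glia-rich libraries, where 9 higher and 2 lower of 23085 genes were called in all, so the count of 0 says little about the lists. Their medians there were 0.32 (NF-kB), 1.05 (interferon), 0.25 (receptors) and 0.56 (glucocorticoid) against 0.08 over all genes. They also had no called member with litter as a replicate block, where 6 higher and 4 lower of 21744 genes were called, and the medians were 0.75, 1.83, 0.68 and 1.13 against 0.15. With the summed oligodendrocyte, astrocyte and microglia levels as covariates, 2, 0, 1 and 1 members were called, against 147 higher and 83 lower of 23426 genes. DESeq2 called 6, 8, 3 and 9 members higher, against 558 higher and 159 lower of 23426 genes. Scaling by library size alone gave 6, 7, 3 and 7, against 338 and 69.

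Glial markers were called in part. Over all 23426 genes tested, 198 were called higher and 127 lower, with a median log2 fold change of 0.11. Of 7 astrocyte markers tested, Aldh1l1, Aqp4 and Slc1a3 rose, by 2.49, 2.09 and 1.58 on the log2 scale, with a list median of 1.47. Of 9 microglia markers, C1qa, a chain of complement C1q, rose by 4.84 (adjusted p = 0.0198, edgeR), with a list median of 1.4. No oligodendrocyte marker of 10 was called, although all 10 had a positive fold change with a median of 1.21 (smallest adjusted p 0.143). The summed microglia level was above the MOR-SAL range of 13.7 to 48.9 CPM in 8 of 18 MOR-LPS libraries and reached 267.9 CPM, and the astrocyte sum was above its range of 123.5 to 556.9 CPM in 6 and reached 1000.0 CPM. Gfap and P2ry12 had too few reads to be tested. Without the glia-rich libraries the medians were 0.73 for astrocytes, 0.27 for microglia and -0.16 for oligodendrocytes, and no marker of the 3 lists was called, against 9 higher and 2 lower of 23085 genes. With litter as a replicate block the medians were 1.07, 0.74 and 0.95, and again no marker of these lists was called, against 6 higher and 4 lower of 21744 genes. The part of glial RNA in the rise of the immune genes was not tested, beyond the values without these libraries given above.

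Of 14 fuel use genes 1 was called and of 10 prostaglandin genes 2 were, against 325 of 23426 genes in all. Pdk2, a kinase that restrains pyruvate oxidation, had 7.15, 10.2 and 15.8 CPM in MOR-SAL and 9.64, 18.5 and 43.5 CPM in MOR-LPS and rose by 1.05 (adjusted p = 0.0237, edgeR). Of 10 prostaglandin genes, Ptgds, the prostaglandin D synthase abundant in oligodendrocytes and meninges, rose by 3.05 and Ptger1, a receptor of prostaglandin E2, fell by 0.88. Ptgds ranged from 158.8 to 1818 CPM in the 6 glia-rich MOR-LPS libraries and had a median of 45.3 CPM in the other 12. Neither list had a called member without the glia-rich libraries (9 higher and 2 lower of 23085 genes) or with litter as a replicate block (6 and 4 of 21744). Ptgs2, the inducible cyclooxygenase, had a log2 fold change of -0.87 (SE 0.80, adjusted p = 0.612).

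The lists of neuronal genes and those named with them here held no call by edgeR with all libraries or by DESeq2, although with the 3 glial sums as covariates 1 core clock gene was called higher. At an unadjusted p under 0.05 by edgeR, 4 of the medium spiny neuron genes, 5 of the cAMP and G protein genes and 3 of the immediate early genes were lower and none was higher, and of the opioid genes 1 was higher and 1 lower, against 2839 higher and 1334 lower of all 23426 genes. None of 23 medium spiny neuron genes passed, with a median log2 fold change of -0.38 and values of -0.95 for Rgs9 (SE 0.46, adjusted p = 0.268), -0.93 for Bcl11b and -0.78 for Pde10a. None of 22 genes of cAMP and G protein signalling passed, with a median of -0.44 and a smallest adjusted p of 0.127 for Rgs8. None of 22 immediate early genes passed, with a median of -0.04, among them Fosl2 at -1.05 (adjusted p = 0.0994), Nr4a3 at -0.86 and Fos. None of 8 opioid receptor and opioid peptide genes passed, with -0.86 for Oprd1 (SE 0.32, adjusted p = 0.143), 0.45 for Oprm1 (SE 0.24, adjusted p = 0.324) and 0.08 for Penk (SE 0.69, adjusted p = 0.980). The lists of 15 ionotropic glutamate receptor subunits (median -0.34), 12 GABA-A subunits (-0.11), 14 clock genes (0.00), 14 heat shock genes (-0.03), 11 oxidative stress genes (0.20) and 8 stress steroid and peptide receptors (0.16) were also without a call. The spread between libraries was wide here, and a p that misses the threshold does not show that these genes kept their level. Cortical and thalamic marker sums also varied between libraries, and the part of the dissection in these values was not tested.

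The same challenge was also given after perinatal saline. SAL-LPS differed from SAL-SAL in 3 genes (0.0128% of the genes tested), Lcn2 and Msr1 higher and Atp12a lower, with 2743 genes at an unadjusted p under 0.05 and 26 genes called by DESeq2. Whether fewer genes were called after saline than after morphine depended on the fit: with the oligodendrocyte, astrocyte and microglia sums as covariates, 485 genes were called after saline, against 147 higher and 83 lower after morphine. Of the 325 genes called after morphine, 212 had the same sign after saline, and the median log2 fold change after saline was 0.18 among the 198 higher and -0.06 among the 127 lower genes. Lcn2 rose by 5.64 after saline and 5.93 after morphine. C4b had a median of 1.68 CPM in SAL-SAL and 8.8 CPM in SAL-LPS, a log2 fold change of 2.26 (adjusted p = 0.0706), and Fkbp5 had one of 0.77 (adjusted p = 0.0706).

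A gene called after morphine and not after saline has not thereby been shown to differ. The test of the difference itself called 2 genes (0.00854% of the genes tested), Adh1 and Gm14271, both of which had all their MOR-SAL reads in 1 of the 8 libraries, and without adjustment 3470 genes passed 0.05. The difference in log2 fold change, morphine minus saline, was 2.84 for C4b (SE 0.82, adjusted p = 0.0773), 3.56 for Serpina3n (SE 0.85, adjusted p = 0.0585) and -0.92 for Slc25a37 (SE 0.25, adjusted p = 0.0657), and it was 0.30 for Lcn2 (SE 1.04) and 0.07 for Fkbp5 (SE 0.26). Among genes with a mean of at least 1 CPM, the 5 with the smallest p were Amot, Slc4a3, Ston2, Gpd2 and Adamts1, each at an adjusted p of 0.0585. DESeq2 called 130 genes for the same difference, and without the glia-rich libraries edgeR called none.

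**Figure D5:**
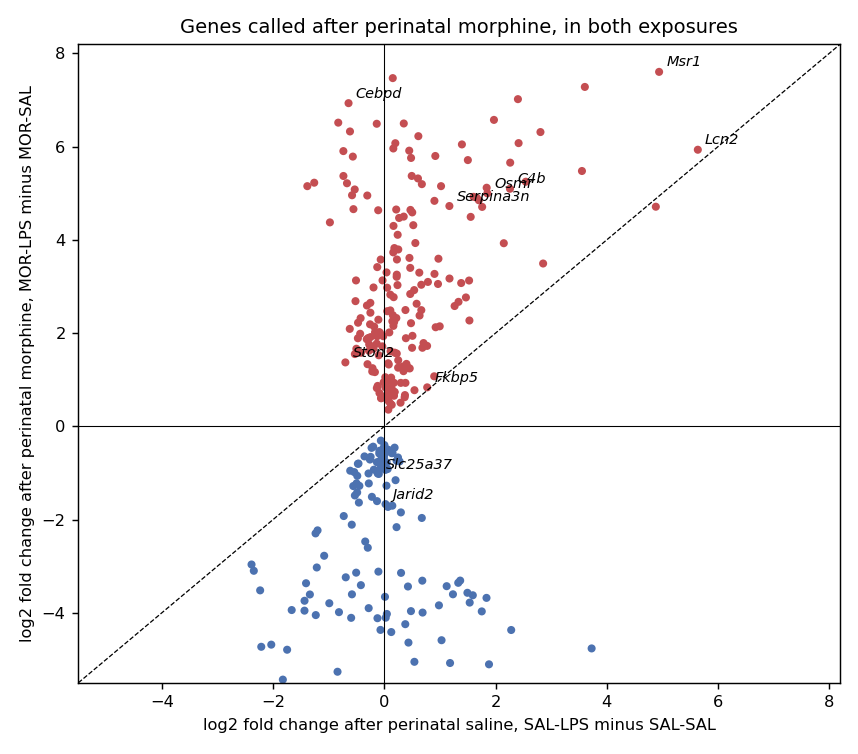
Log2 fold change under LPS after perinatal saline (x axis) and after perinatal morphine (y axis) for the 325 genes called after morphine; red genes were higher and blue lower in MOR-LPS, and the dashed line marks equal change. Lcn2 and Fkbp5 lie at the dashed line, and most of the others lie nearer 0 on the saline axis; the genes were chosen by the morphine axis.

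The sexes were also compared. No gene's response after morphine differed between males and females by edgeR (0% of the genes tested, with 2190 genes at an unadjusted p under 0.05), and DESeq2 called 51. C4b changed by 7.99 in females and 3.39 in males, and Serpina3n by 5.29 and 4.05. The best-ranked genes of the sex comparison were Stab1, a scavenger receptor of macrophages and vessels (8.78 in females, 1.15 in males, adjusted p of the difference 0.103), Josd2 and Paqr6 (both 0.277). Sex and litter move together, as each litter number held 1 sex here, and 5 of the 6 glia-rich MOR-LPS libraries came from females. With females alone 122 genes were higher and 22 lower, and with males alone none was called (1036 and 402 at an unadjusted p under 0.05).

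The same contrast in the other regions, fitted region by region after libraries under the same depth limit were left out (2 morphine libraries in the hippocampus, 2 in the prefrontal cortex and 0 in the hypothalamus), gave 20 genes in the hippocampus (0.0906%), 2 in the prefrontal cortex (0.00924%) and 1971 in the hypothalamus (6.83%). Most of these mice also gave a striatal library, so the regions do not stand alone, and the number called was not compared between them. Of the 325 striatal genes, 288 were tested in the hypothalamus and 80 were called there, 3 of 295 were called in the hippocampus and 2 of 291 in the prefrontal cortex. C4b had log2 fold changes of 4.91 in the hypothalamus (adjusted p = 0.000215), 3.52 in the prefrontal cortex (adjusted p = 0.0985) and 2.65 in the hippocampus (adjusted p = 0.0949). Serpina3n had 2.32 (adjusted p = 0.000544), 1.56 (0.338) and 0.17 (0.951). Slc25a37 had -0.24, -0.58 and -0.36, none of them called, and Fkbp5 had 1.46 (adjusted p = 0.00848), 0.81 and 0.21.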

How the data were processed

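Nuclear RNA of sorted NeuN+ striatal nuclei was sequenced in pairs by a Smart-seq3 type protocol, 1 library per mouse. The authors trimmed reads with Trim Galore 0.6.7, aligned them to mm10 with STAR 2.7.10a and obtained gene counts with STAR, checked with HTSeq 0.12.4, by the study's methods and the submitters' processing notes. The deposited tables hold raw counts, which were used as deposited. Whether counting used strand is not given in the sources used here. The deposited normalized tables were not used here.

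Of 46403 genes, the 23426 with a total above 10 reads were fitted over all 54 striatal libraries with edgeR 4.0.16 (quasi-likelihood test, TMM scaling, terms for the 4 groups and sex, R 4.3.3), and p-values were adjusted over all genes by Benjamini-Hochberg with a threshold of 0.05. The procedure was tested on simulated data, where excess false calls lay nearly all among genes under 1 CPM. Alternatives were DESeq2 1.42.0, limma-voom 3.58.1 with a correlation within litters, other filters, scalings and covariates, each library and litter left out in turn, and litter as a block. The first part of the animal number was taken as the litter, because the study's supplement gives animal numbers in that form. The labels do not name it so, and the study's methods total the litters of the 4 groups as if none were shared, while also assigning the challenge to single animals after weaning, so the litter fits rest on this reading. By it, each morphine litter held 1 sex, 5 of the 10 held both challenges, and deviations from the group means correlated with a mean r of 0.06 between litter mates of different challenges (14 pairs, -0.679 to 0.417, against -0.004 over 130 pairs of other litters) and 0.09 between those of the same challenge (13 pairs, against -0.076 over 168 pairs of other litters). By this reading several libraries share a litter, so p-values without that block treat litter mates as independent.

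Named genes are the 12 higher and 12 lower called genes with the smallest p among those with a mean of at least 1 CPM and no predicted symbol, up to 4 members with the smallest p and the first member of each list, and the 5 and 3 genes with the smallest p in the comparisons of exposures and sexes. Dapp1, Nmi, Atp12a, Adh1, Gm14271 and some list members such as Tnf, Il1b and Penk were named after their values were seen. The comparison and the gene lists were chosen with earlier results of these data known. Counting intervals and the floor of 3 reads cover counting error only (95% level). Promoters are from RefSeq, gene positions from GENCODE on mm10.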

Additional observations from a re-analysis of the deposited data

Results flagged for a closer look

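Among the 8 MOR-SAL libraries, the gap between the extreme library and its neighbour, as a share of the whole range, passed the 95% critical value of Dixon in 13 of 36 values examined. The nominal rate of about 1 in 20 groups is no yardstick for this count. Of these values, 24 are of leading genes called with the same libraries, and sums of the same library are not independent. Library 15-0 was the highest for Jarid2 (0.982), Tmtc2 (0.99), Mir6236 (0.991), Slc4a3 (0.6), the summed neuron markers (0.798) and the summed repeat-like transcripts (0.635). Library 17-2 was the highest for the summed markers of oligodendrocytes (0.807), astrocytes (0.535), microglia (0.79), choroid plexus and ependyma (0.918) and striatal interneurons (0.767). The ratio was 1.0 for Mrgpra9, whose 2 reads were all in library 8-0, and 1.0 for Lcn2, whose 2 reads were all in library 17-4. It is always 1.0 where only 1 library holds reads.

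The test of the difference between exposures called Adh1 (fitted difference in log2 fold change -7.5, morphine minus saline) and Gm14271 (-8.49), both at an adjusted p of 0.0463 by edgeR. For each gene, 1 of the 8 MOR-SAL libraries held all of the MOR-SAL reads, and no fit of this difference without that library was run. With groups at 0 reads the fitted size depends on the prior count. Adh1 had 25 reads in MOR-SAL, 1 in MOR-LPS, 0 in SAL-SAL and 20 in SAL-LPS, and Gm14271 had 24, 0, 0 and 22.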

How the results depend on the processing

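The 198 genes higher and 127 lower in MOR-LPS became, in that order, 338 and 69 with library size only, 17 and 5 with only the 2 groups compared, 6 and 4 with litter as a replicate block, 108 and 29 with limma-voom, 87 and 19 with counts summed over litters, 122 and 22 in females, 0 and 0 in males, 9 and 2 without the libraries rich in oligodendrocyte markers, 6 and 2 with a minimum of 1 CPM as well, 43 and 26 with an oligodendrocyte covariate, and 49 and 18 in litters with both challenges. DESeq2 gave 558 higher genes, and 3 glial covariates gave 83 lower. Leaving out single libraries or litters gave 8 to 297 higher and 5 to 168 lower. Without litters 7, 12, 14, 15, 16 and 18 the higher genes were 108, 66, 24, 8, 59 and 123, and without litters 7, 8, 12, 14, 15 and 16 the lower were 80, 81, 36, 21, 5 and 33. The 3 genes changed after saline became 26 (DESeq2), 0 (minimum of 1 CPM, litter block, limma-voom, litter sums), 6 (rich libraries removed), 485 (3 covariates) and 47 (oligodendrocyte covariate). The 2 genes that differed between exposures became 130 (DESeq2), 236 (library size only), 139 (no sex term), 48 (3 covariates), 29 (oligodendrocyte covariate) and 0 with filterByExpr, the minimum of 1 CPM, limma-voom, litter sums and the rich libraries removed. The sexes differed in 51 genes by DESeq2. The hippocampus gave 65 genes by DESeq2, 0 with filterByExpr and 103 with all libraries, the prefrontal cortex 44 by DESeq2 and 4 with all libraries, and the hypothalamus 899 with filterByExpr. Tmtc2 ranged from -2.05 to 0.14 when libraries or litters were left out, and turned to 0.14 without MOR-SAL 15-0 and to 0.01 without litter 15. The causes were not tested. C4b and Serpina3n stayed called in 55 of 56 alternatives and Msr1 in 53 of 54. The alternatives on glial markers and litters with both challenges were chosen after seeing the data.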
